A study of Mus musculus with 32 samples.

Results

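The genes described here were 10 members of the bone morphogenetic protein (Bmp) pathway among the 48576 gene identifiers of the deposited tables. They comprised the ligands Bmp2, Bmp4, Bmp5 and Bmp7, the secreted antagonist Nog and the target genes Msx1, Msx2, Id1, Id2 and Id3, and each was matched by its Ensembl identifier. RNA-seq had been carried out on forebrain (Fb) and midbrain (Mb) tissue dissected at embryonic day 9.5 (E9.5) from mouse embryos of the B6C3F1 strain, with 32 libraries in all. Each tissue had 6 WT, 4 TKO_Ex, 3 DKO_Ex and 3 DKO_CD libraries. TKO_Ex embryos were labelled triple knockouts of the type II cadherins Cdh6, Cdh8 and Cdh11, and had exencephaly, an open brain. DKO_Ex embryos were labelled double knockouts of Cdh8 and Cdh11 with exencephaly. DKO_CD embryos had a cranial defect without exencephaly, and their genotype is Cdh6.8 in the labels and Cdh8/11 in the paper's methods. WT embryos came from WT matings and mutants from matings of Cdh6/8/11 triple heterozygous parents, so that mating type and genotype cannot be told apart. The knockouts were germline deletions in the exons with the start codon, present in every cell of the embryo. All values are FPKM, fragments per kilobase of transcript per M mapped fragments, a unit that scales for transcript length and mapped fragments only.

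Bmp ligands are secreted proteins that bind paired type I and type II receptors, which phosphorylate Smad1, Smad5 and Smad8/9 and send them with Smad4 to the nucleus. Antagonists such as Noggin, the product of Nog, bind the ligands outside the cell. In the early head, Bmp signals from the surface ectoderm and the dorsal midline act on the neighbouring neural plate, where Msx and Id genes are known targets.

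Promoter sequences are shown for the ligand and the targets whose WT libraries separated completely between Mb and Fb, namely Bmp4, Msx1 and Id2. RefSeq promoters on GRCm38.p6 were matched for 6 of the 10 members (Bmp4, Bmp5, Msx1, Msx2, Id2 and Id3). The windows searched were the 250 bases before the RefSeq start. All 250 bases of the Msx2 and Id3 windows and 161 of the Id2 window lay in exons that GENCODE M21 annotates. Each stretch below reads 5′ to 3′ on the strand of its gene, is limited to bases outside the exons that GENCODE M21 annotates for that gene, and has the motif GGCGCC in capitals.
Bmp4, chr14:46390670-46390919, minus strand: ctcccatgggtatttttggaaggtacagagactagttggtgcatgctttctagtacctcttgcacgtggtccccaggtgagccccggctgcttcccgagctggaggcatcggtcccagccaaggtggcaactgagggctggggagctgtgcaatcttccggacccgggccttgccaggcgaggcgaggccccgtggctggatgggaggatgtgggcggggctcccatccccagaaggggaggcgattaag
Msx1, chr5:37824586-37824835, minus strand: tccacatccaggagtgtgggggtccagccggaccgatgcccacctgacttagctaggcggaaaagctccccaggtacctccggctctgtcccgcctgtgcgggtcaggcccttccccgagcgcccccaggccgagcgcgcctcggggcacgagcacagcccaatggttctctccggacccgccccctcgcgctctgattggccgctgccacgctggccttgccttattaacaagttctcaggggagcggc
Id2, chr12:25096254-25096342, minus strand: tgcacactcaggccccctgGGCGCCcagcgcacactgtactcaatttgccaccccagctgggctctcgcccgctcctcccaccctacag
GGCGCC, a palindrome that Smad1 and Smad5 are known to bind, occurred once in the Id2 window and in none of the other 5 member windows, against 9.59% of 32851 promoter windows of the same length. The Smad box CAGAC, read on both strands (CAGAC or GTCTG), occurred 2 times in the Id3 window and 1 time in that of Bmp5, and 42.2% of all windows held it. These matches describe letters in a window and are no evidence of binding, and no match in Bmp4, Msx1 or Msx2 says only that the letters are not in these bases.

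The depth estimated from the smallest steps between low values was 1.95 to 3.24 M fragments per library. Among Mb libraries, WT had 2.38 to 2.93 M, TKO_Ex 1.95 to 2.33 M, DKO_Ex 3.09 to 3.24 M and DKO_CD 2.47 to 2.75 M. Among the targeted genes, Cdh6 was 0.345 to 0.388 FPKM in 3 TKO_Ex Mb libraries and 3.10 in the library labelled TKO_Ex replicate 3, which lay within the WT range of 1.04 to 3.55. Cdh8 was 0.851 to 2.32 FPKM in the TKO_Ex Mb against 1.14 to 10.1 in WT, and Cdh11 was 14.5 to 16.6 against 17.9 to 28.7. Since the deletions are small, RNA of a deleted gene can remain. As for the tissue labels, 7 of 7 forebrain markers were lower and 7 of 8 midbrain markers higher in the WT Mb than in the WT Fb (limma, adjusted p under 0.05). WT Mb replicate 5 stood apart, with 3.57 FPKM of the midbrain gene En1 whereas the other 5 libraries of that group held 32.0 to 59.0. It also had the lowest summed level of the midbrain markers (89.5 FPKM) and the highest of the forebrain markers (65.9 FPKM) among them. For 12 DKO files, heading and GEO record disagree on which DKO group they belong to. Groups here follow the headings, and following the records would exchange DKO_Ex and DKO_CD. With the headings, Cdh11 was 17.1 to 18.7 FPKM in the DKO_Ex Fb, below the 19.5 to 25.3 of WT, and 12.7 to 25.3 in the DKO_CD Fb, which overlapped with WT. Cdh6 was 1.29 to 2.11 FPKM in the DKO_CD Mb, inside the WT range.

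The first comparison asked how the pathway differed between the WT brain regions. Among the 10 members, the ligands that differed were higher in the Fb and the targets that differed were higher in the Mb, which did not hold for further pathway genes such as Gdf7 and Dlx5. Bmp4 and Bmp7 were lower in the WT Mb than in the WT Fb, whereas Msx1, Msx2, Id2 and Id3 were higher, so that 6 of 10 members passed the threshold (limma on log2(FPKM + 1), adjusted p under 0.05 over all 13344 genes tested). Of all genes tested, 8.26% passed, with 4.66% higher and 3.6% lower. Bmp7 and Msx2 did not pass when the replicate number was taken as a block. In bulk tissue, fewer cells of a type and less RNA per cell cannot be told apart.

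Bmp4, a ligand of the dorsal midline and surface ectoderm, had 5.38 to 9.51 FPKM in the 6 WT Fb libraries (median 6.98) and 0.850 to 2.95 FPKM in the 6 WT Mb libraries (median 1.49). The ranges did not overlap, and the mean was 4.15-fold higher in the Fb. On the log2 scale the Mb minus Fb difference was -1.62 (standard error 0.20, limma adjusted p = 0.000129). Bmp7, a ligand that is often expressed beside Bmp4, ranged from 8.74 to 12.2 FPKM in the WT Fb (median 10.8) and from 4.93 to 8.99 in the WT Mb (median 7.28). In all but replicate 5, the WT Mb libraries lay below every WT Fb library. The difference of Bmp7 was -0.56 (standard error 0.13, limma adjusted p = 0.0185). With the replicate number as a block it did not pass (limma adjusted p = 0.0797).

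The other ligands gave no call. Bmp2 was low in both tissues, with 0.831 to 2.10 FPKM in the WT Fb and 0.107 to 1.22 in the WT Mb. Its difference of -0.50 (standard error 0.21) had an adjusted p of 0.194 from limma, and 3 of 6 Mb libraries lay below all of the Fb. Bmp5, which was 1.06 to 3.22 FPKM in the WT Fb and 1.001 to 3.63 in the WT Mb, had a difference of 0.04 (standard error 0.24, limma adjusted p = 0.959). The antagonist Nog ranged from 3.17 to 6.95 FPKM in the WT Fb and from 4.82 to 7.21 in the WT Mb, with a difference of 0.12 (standard error 0.15, limma adjusted p = 0.731).

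Msx1, a homeobox gene of the dorsal midline and neural crest, had 16.8 to 26.9 FPKM in the WT Fb (median 19.5) and 36.0 to 52.5 in the WT Mb (median 42.2). All 6 Mb libraries were above all 6 Fb libraries, and the difference was 1.03 (standard error 0.12, limma adjusted p = 0.000106). Id2, which encodes a helix-loop-helix protein that holds back DNA-binding partners, separated in the same way, with 44.4 to 54.9 FPKM in the WT Fb (median 49.6) and 83.9 to 125 in the WT Mb (median 105). Its difference of 1.08 was the most precise among the members (standard error 0.09, limma adjusted p = 5.73e-06). Members whose ranges did not overlap were thus 2 higher (Msx1 and Id2) and 1 lower (Bmp4), where 3.36% and 2.23% of all genes tested were so placed.

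Id3, the most abundant member, ranged from 171 to 210 FPKM in the WT Fb (median 190.0) and from 199 to 314 in the WT Mb (median 266). In 5 of 6 Mb libraries it exceeded all of the Fb, and the difference was 0.50 (standard error 0.10, limma adjusted p = 0.00653). Msx2, the paralogue of Msx1, had 3.14 to 5.28 FPKM in the WT Fb (median 4.62) and 5.08 to 12.5 in the WT Mb (median 7.49), a difference of 0.71 (standard error 0.18, limma adjusted p = 0.0289). The Msx2 call was lost without WT Mb replicate 4 or 6 or without WT Fb replicate 1, 2 or 6, each left out on its own, where the limma adjusted p was 0.0547 to 0.0661. It was also lost with the replicate number as a block (limma adjusted p = 0.0811). Id1, also an inhibitor of helix-loop-helix proteins, had 66.7 to 106 FPKM in the WT Fb (median 82.0) and 95.5 to 160 in the WT Mb (median 101). Its difference of 0.42 (standard error 0.14) did not pass (limma adjusted p = 0.0823), but it passed without WT Fb replicate 5 (limma adjusted p = 0.0407). Tested as single genes, these members gave two-sided exact permutation p values of 0.00217 for Bmp4, Msx1 and Id2, the smallest that 6 against 6 allow. The exact p was 0.00433 for Bmp7 and Id3, 0.00866 for Msx2, 0.0108 for Id1 and 0.0195 for Bmp2. Without WT Mb replicate 5, the count of members called was again 6 (limma), and the difference was -1.61 for Bmp4, -0.63 for Bmp7, 0.99 for Msx1, 0.75 for Msx2, 1.05 for Id2 and 0.50 for Id3.

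**Figure D1:**
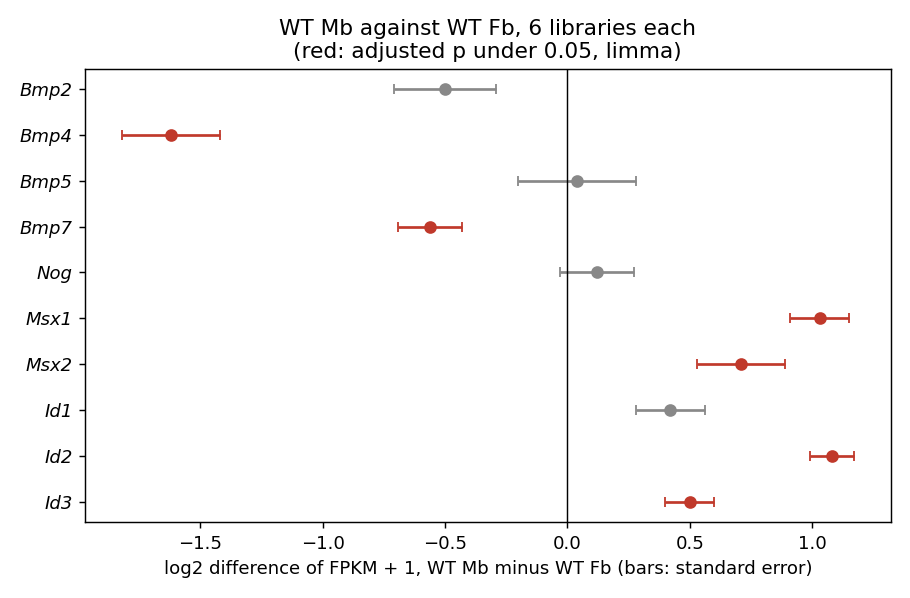
Difference between WT Mb and WT Fb for the 10 genes (x axis, log2 of FPKM + 1, Mb minus Fb; bars, standard error; 6 libraries per tissue). Bmp4 at -1.62 and Bmp7 at -0.56 lie on the Fb side in red, and Msx1, Msx2, Id2 and Id3 at 0.50 to 1.08 on the Mb side.

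Marker RNA of several cell types also differed between the WT regions, which need not mean a different number of cells. The lists share genes, with Wnt1 in both the roof plate and midbrain lists and Pax6 in both the neuroepithelium and forebrain lists. Summed levels of 10 surface ectoderm markers were 88.0 to 157 FPKM in the WT Fb and 30.6 to 54.5 in the WT Mb, and 7 of 7 markers tested were lower in the Mb (limma). The 9 cranial mesenchyme markers with values summed to 229 to 269 FPKM in the WT Fb and 125 to 236 in the WT Mb, with 6 of 9 lower and 1 higher in the Mb. Roof plate markers summed to 54.2 to 102 FPKM in the WT Fb and 98.6 to 153 in the WT Mb, with 4 of 8 higher and 1 lower in the Mb. The 5 neuron markers with values summed to 5.62 to 14.4 FPKM in the WT Fb and 32.8 to 69.8 in the WT Mb, and 5 of 5 were higher in the Mb (limma). Neuroepithelium markers summed to 399.8 to 541 FPKM in the WT Fb and 563 to 753 in the WT Mb, with 3 of 8 higher and 1 lower in the Mb. Neural crest markers summed to 41.8 to 57.9 FPKM in the WT Fb and 26.0 to 41.8 in the WT Mb, with 2 of 6 tested lower and 0 higher in the Mb (limma). None of the markers of these lists that had values was at 0 throughout a WT group. The part of these cell types in the differences of Bmp4, Bmp7 and the targets was not tested.

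Among 45 further pathway genes, 30 were tested in this comparison and 6 passed (limma), 3 higher and 3 lower in the Mb. Both tested ligands outside the members were higher in the Mb, opposite to Bmp4 and Bmp7. Gdf7, a roof plate ligand, averaged 3.90 ± 1.46 FPKM over WT Mb libraries (SD, n = 6) and 0.491 ± 0.468 in the WT Fb, a difference of 1.72 on the log2 scale (limma adjusted p = 0.000590). Bmp6 averaged 2.28 ± 0.263 FPKM over WT Mb libraries (SD, n = 6) and 0.800 ± 0.263 in the WT Fb, a difference of 0.88 (limma adjusted p = 0.00163). The antagonist Fst, which encodes follistatin, averaged 11.03 ± 3.48 FPKM over WT Mb libraries (SD, n = 6) and 4.73 ± 1.17 in the WT Fb, a difference of 1.05 (limma adjusted p = 0.00534), and the other 6 antagonists tested did not pass.

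Not all targets were higher in the Mb. Dlx5, a homeobox gene of the anterior head, was 12.6 ± 3.85 FPKM in the WT Fb (SD, n = 6) and 0.397 ± 0.348 in the WT Mb, a difference of -3.27 (limma adjusted p = 3.64e-07). Id4, the family member not among the 10, was 11.6 ± 5.77 FPKM in the WT Fb (SD, n = 6) and 4.15 ± 1.70 in the WT Mb, a difference of -1.24 (limma adjusted p = 0.0164), opposite in direction to Id2 and Id3. Hey1 differed by -0.56 (limma adjusted p = 0.0475). The 7 receptor genes had WT means of 2.27 to 21.98 FPKM in the Fb and 1.24 to 23.3 in the Mb, and 0 of 7 passed, with 2 at an unadjusted p under 0.05 (limma). Similarly, 0 of 8 Smad and regulator genes tested passed, with 1 at an unadjusted p under 0.05. Of all genes tested, 20.9% reached that unadjusted level.

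The second comparison asked whether the pathway differed between each mutant group and WT in the same tissue. For none of the members did a difference pass the threshold in any of the 6 comparisons (limma, smallest adjusted p = 0.479). Bmp2 was below the filter of 1 FPKM in the Mb, so that 9 members were tested there and 10 in the Fb. At an unadjusted p under 0.05 there were 0 of 9 in the TKO_Ex Mb, 2 of 9 in the DKO_Ex Mb, 3 of 9 in the DKO_CD Mb, 1 of 10 in the TKO_Ex Fb, 1 of 10 in the DKO_Ex Fb and 0 of 10 in the DKO_CD Fb. Among all genes tested, the adjusted threshold was passed in the Mb by 0.0898% in TKO_Ex, 0.0903% in DKO_Ex and 0.0375% in DKO_CD, and in the Fb by 0.0603%, 0.0759% and 0.0378%. An unadjusted p under 0.05 was reached by 8.38%, 5.46% and 6.69% of all genes in the Mb of TKO_Ex, DKO_Ex and DKO_CD, and by 8.66%, 7.01% and 8.44% in their Fb. The 3 groups share the same WT libraries within a tissue, so their differences are not independent. A p that misses the threshold does not show that the levels were alike.

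**Figure D2:**
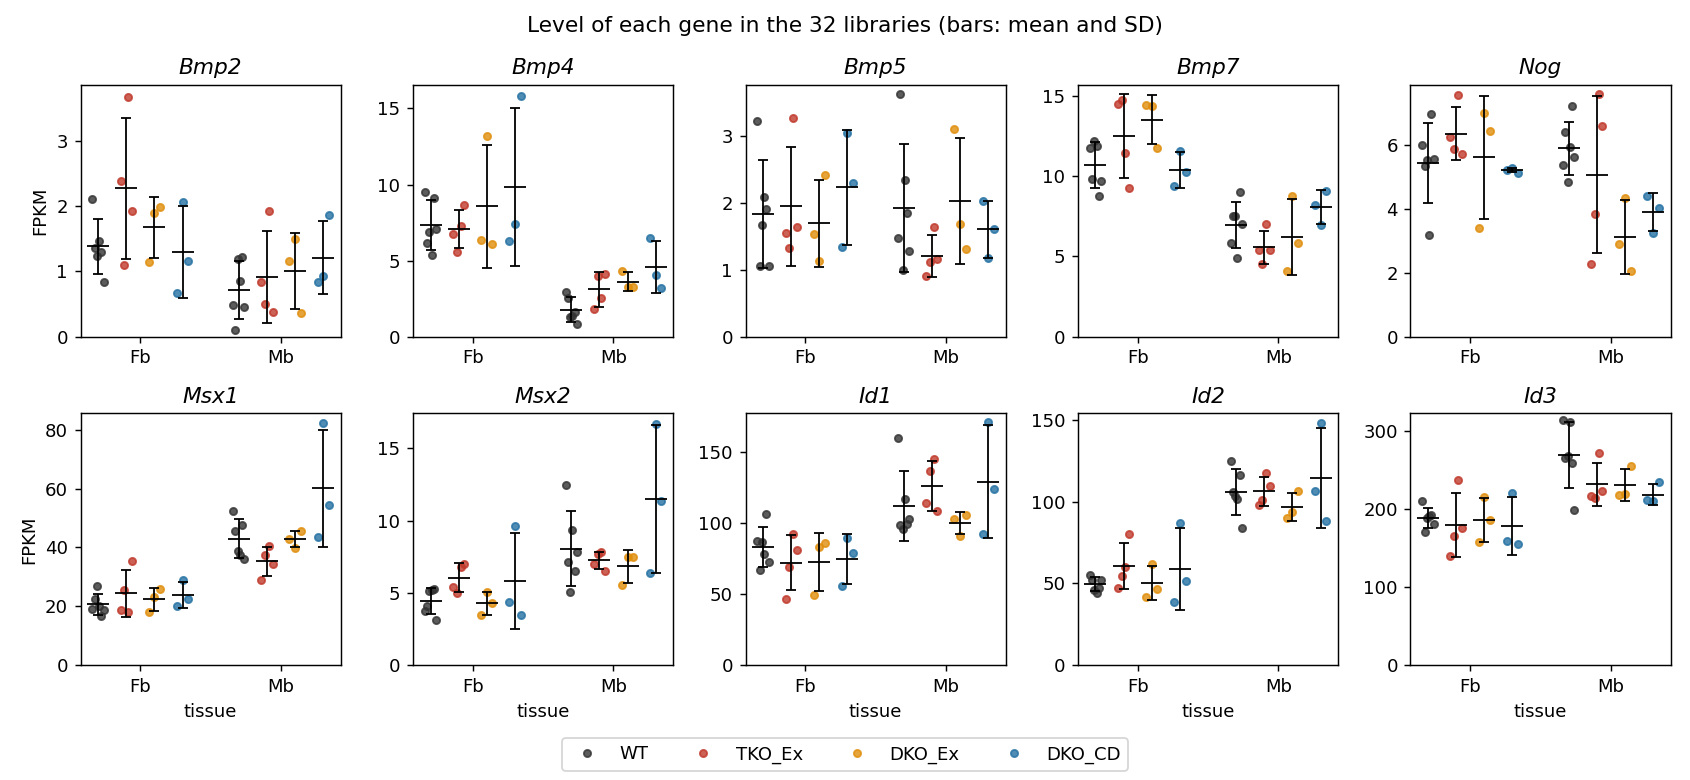
FPKM (y axis, linear, from 0) of each of the 10 genes in every library, by tissue (x axis) and group (colour); each point is 1 library and bars give mean and SD. In the Mb, the DKO points of Bmp4 (3.19 to 6.52) lie above the WT points and those of Nog (2.06 to 4.40) below them, whereas Id2 and Id3 overlap with WT in every mutant group.

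Within the Mb, the members that stood out were Bmp4 and Nog. In the 6 WT Mb libraries, Bmp4 ran from 0.850 to 2.95 FPKM with a median of 1.49. Bmp4 was 1.80, 3.99, 2.52 and 4.11 FPKM in the TKO_Ex Mb. DKO_Ex Mb libraries held 4.33, 3.27 and 3.24 FPKM, and DKO_CD Mb libraries 6.52, 4.07 and 3.19. All 6 DKO libraries and 2 of 4 TKO_Ex libraries were above every WT Mb library. The log2 difference from WT was 0.57 ± 0.26 (standard error) in TKO_Ex, 0.78 ± 0.26 in DKO_Ex and 1.02 ± 0.29 in DKO_CD. By limma, its adjusted p was 0.602, 0.788 and 0.507 in that order. As a single gene it had a two-sided exact permutation p of 0.0762 in TKO_Ex and of 0.0238 in DKO_Ex and in DKO_CD, the smallest that 3 against 6 allow, and 70 such tests were run over the members. Of all genes tested, 2.01% in the DKO_Ex Mb, 2.24% in the DKO_CD Mb and 1.21% in the TKO_Ex Mb lay above WT without overlap. The values rest on few fragments, about 4 to 37 for Bmp4 in an Mb library.

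Nog went the other way in the DKO Mb. It was 4.82 to 7.21 FPKM in the 6 WT Mb libraries (median 5.77). Levels of Nog were 2.9, 4.34 and 2.06 FPKM in the Mb of DKO_Ex and 4.40, 3.25 and 4.02 in that of DKO_CD, all below every WT Mb library. The TKO_Ex Mb was split, with 2.26 and 3.82 FPKM in replicates 1 and 2, below all of WT, 6.59 in replicate 4 and 7.58 in replicate 3, above all of WT. The log2 difference of Nog was -0.78 ± 0.19 (standard error) in DKO_Ex, -0.49 ± 0.15 in DKO_CD and -0.27 ± 0.25 in TKO_Ex. Its adjusted p by limma was 0.479, 0.540 and 0.829 in that order. Its two-sided exact permutation p was 0.0238 in each DKO group and 0.371 in TKO_Ex. Of all genes tested, 0.993% in the DKO_Ex Mb, 1.14% in the DKO_CD Mb and 0.524% in the TKO_Ex Mb lay below WT without overlap. The TKO_Ex difference of Nog was -0.01 without TKO_Ex replicate 1, -0.42 without replicate 4 and -0.47 without the library labelled replicate 3 (limma adjusted p = 0.687 to 0.997). Without that last library, the difference of Bmp4 was 0.63 (limma adjusted p = 0.705). With WT replicate 5 left out, the Mb difference of Nog was -0.72 in DKO_Ex and -0.44 in DKO_CD, and that of Bmp4 was 0.77 and 1.01. About 8 to 32 fragments per Mb library lay behind Nog.

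**Figure D3:**
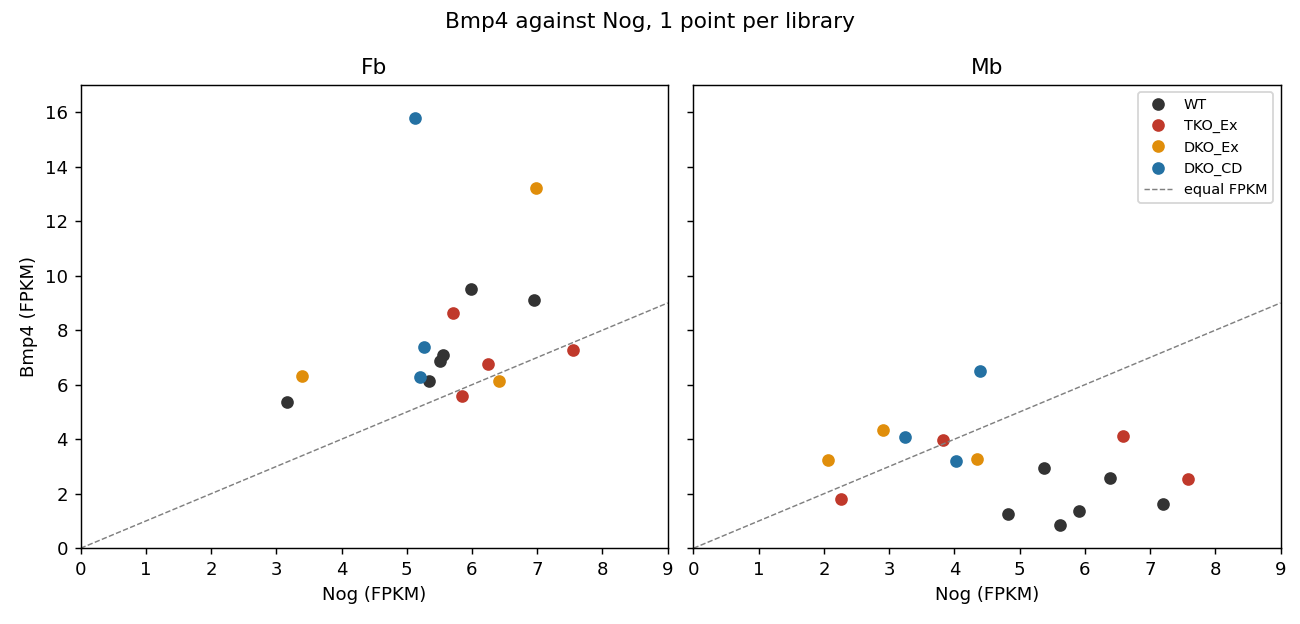
Bmp4 (y axis, FPKM) against Nog (x axis, FPKM), with 1 point per library, Fb on the left and Mb on the right; the dashed line marks equal FPKM. The 6 WT Mb points lie at 0.850 to 2.95 FPKM of Bmp4 and 4.82 to 7.21 of Nog, and the 6 DKO Mb points lie above and to the left of them.

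The ratio of Bmp4 to Nog was formed after these values had been seen, and is given as a description with no test. In the WT Mb it was 0.151 to 0.55, and in the TKO_Ex Mb 0.333 to 1.04. The DKO Mb libraries had ratios of 0.752 to 1.57 in DKO_Ex and 0.794 to 1.48 in DKO_CD, all above the WT Mb. That separation was fixed by the higher Bmp4 and lower Nog of these libraries and adds no further result. In the Fb the ratio was 1.15 to 1.7 in WT, 0.956 to 1.51 in TKO_Ex, 0.954 to 1.89 in DKO_Ex and 1.21 to 3.08 in DKO_CD, so that every mutant group overlapped with WT there.

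Targets in the mutant Mb stayed mostly within the WT range. Msx1 was 43.5, 82.2 and 54.5 FPKM in the DKO_CD Mb, where replicates 2 and 3 exceeded every WT Mb library (36.0 to 52.5 FPKM). The Msx1 difference was 0.44 in DKO_CD (standard error 0.19, limma adjusted p = 0.732) and ranged from 0.19 to 0.64 with 1 library left out, lowest without DKO_CD replicate 2. In the TKO_Ex Mb, Msx1 was 29.1, 37.3, 40.7 and 34.3 FPKM, with 2 of 4 libraries below all of WT and a difference of -0.27 (standard error 0.13, limma adjusted p = 0.614). DKO_Ex, with 43.0, 39.9 and 45.6 FPKM of Msx1, lay inside the WT range. DKO_CD replicate 2 was also the highest Mb library for Msx2 (16.7 FPKM), Id1 (171 FPKM) and Id2 (148 FPKM), whereas Bmp4 was highest in DKO_CD replicate 1.

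Id3 was 217, 214, 272 and 224 FPKM in TKO_Ex, 219, 219 and 255 in DKO_Ex and 211, 210 and 234 in DKO_CD Mb libraries, against 199 to 314 in WT (median 266). All 10 mutant libraries were inside the WT range. The Id3 difference was -0.21 in TKO_Ex, -0.21 in DKO_Ex and -0.29 in DKO_CD (standard errors 0.13 to 0.14, limma adjusted p = 0.716 to 0.923). Id2 means were 106, 96.6 and 114 FPKM in the TKO_Ex, DKO_Ex and DKO_CD Mb, against 106 ± 14.0 in WT (SD, n = 6). Bmp5 and Bmp7 overlapped with WT in all 3 mutant groups of the Mb, with Bmp7 means of 5.57, 6.22 and 8.09 FPKM against 6.98 ± 1.42 in WT (SD, n = 6). Bmp2, which was not tested there, had Mb means of 0.909, 1.01 and 1.21 FPKM against 0.717 ± 0.442 in WT (SD, n = 6).

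**Figure D4:**
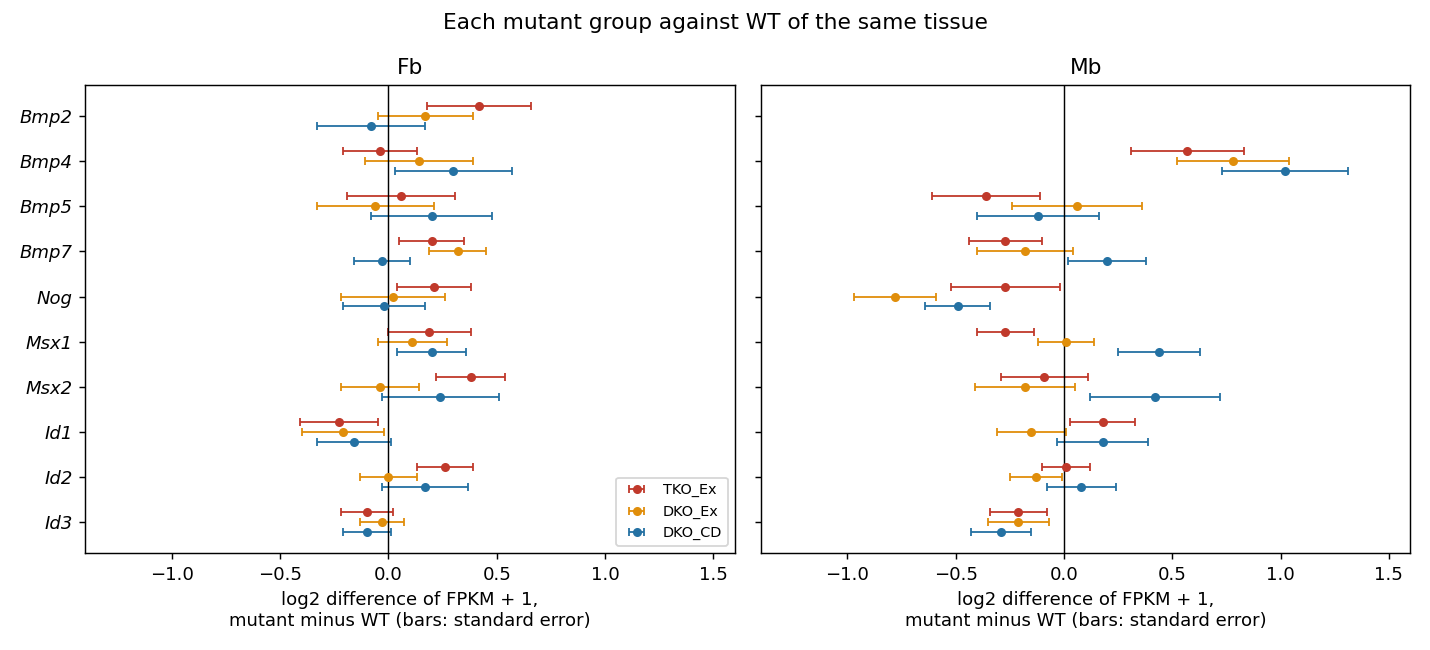
Difference of each mutant group from WT (x axis, log2 of FPKM + 1, mutant minus WT; bars, standard error) for the 10 genes in the Fb (left) and the Mb (right), with colours for groups; Bmp2 has no point in the Mb, where it was below the filter. In the Mb, Bmp4 lies at 0.57 to 1.02 and Nog at -0.27 to -0.78, and in the Fb the points of both genes lie from -0.04 to 0.30.

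In the DKO_CD Mb, marker sums of cranial mesenchyme and surface ectoderm lay partly outside the WT range. Summed cranial mesenchyme markers were 241, 313 and 204 FPKM in its replicates 1 to 3 and 125 to 236 across WT, and 6 of 9 markers were higher at an unadjusted p under 0.05 and 0 at the adjusted threshold (limma). The surface ectoderm markers summed to 26.8, 101 and 76.8 FPKM in the same libraries, on both sides of the 30.6 to 54.5 of WT. Of these markers, 2 of 6 tested were higher at an unadjusted p under 0.05 and 0 at the adjusted threshold (limma). In the DKO_Ex Mb the surface ectoderm sum was 46.0 to 48.7 FPKM and in the TKO_Ex Mb 32.4 to 49.4, both within the WT range. The WT median was 33.2 FPKM. Bmp4 was 6.52, 4.07 and 3.19 FPKM in DKO_CD Mb replicates 1 to 3, whose surface ectoderm sums are given above. The part of cell content in the Bmp4, Nog and Msx1 values was not tested.

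In the Fb, all 10 members overlapped with WT in every mutant group, so that 0 of 10 stood apart in either direction. The share of all genes tested that did was 1.42% above and 0.814% below WT in TKO_Ex, 1.46% and 2.25% in DKO_Ex, and 2.92% and 1.3% in DKO_CD. Msx2 was 5.43, 4.96, 6.799 and 7.02 FPKM in the TKO_Ex Fb against 3.14 to 5.28 in WT, with 3 of 4 libraries above all of WT and a difference of 0.38 (standard error 0.16, limma adjusted p = 0.541, two-sided exact permutation p = 0.0571). Bmp7 was 14.5, 14.4 and 11.8 FPKM in the DKO_Ex Fb against 8.74 to 12.2 in WT, with 2 of 3 above and a difference of 0.32 (standard error 0.13, limma adjusted p = 0.670). Bmp4 in the Fb was 5.59 to 8.64 FPKM in TKO_Ex, inside the WT range of 5.38 to 9.51. Single libraries were high in the DKO groups, with 13.2 FPKM of Bmp4 in DKO_Ex replicate 2 and 15.8 in DKO_CD replicate 3. The surface ectoderm sums of these libraries were 234 and 123 FPKM, and their part in the Bmp4 values was not tested. DKO_CD replicate 2 exceeded every WT Fb library for Msx1 (28.9 FPKM), Msx2 (9.62 FPKM), Id2 (87.0 FPKM) and Id3 (221 FPKM). The other members lay inside the WT range in that library. Its marker sums were 303 FPKM for surface ectoderm and 133 FPKM for cranial mesenchyme, and their part in these values was not tested. In the TKO_Ex Fb the surface ectoderm sum was 133 to 330 FPKM against 88.0 to 157 in WT, with 5 of 9 markers higher at an unadjusted p under 0.05 (limma) and 0 at the adjusted threshold, and its part in the Msx2 value was not tested. Cranial mesenchyme markers summed to 180 to 233 FPKM in the TKO_Ex Fb and 192 to 216 in the DKO_Ex Fb, against 229 to 269 in WT. In each of these groups 4 of 9 were lower at an unadjusted p under 0.05 (limma) and 0 at the adjusted threshold, and their part in the Msx2 and Bmp7 values was not tested.

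Whether the mutant effect differed between Mb and Fb was tested as an interaction, which 0 of 10 members passed in each mutant group (limma; 1, 1 and 0 at an unadjusted p under 0.05 in TKO_Ex, DKO_Ex and DKO_CD). Of all genes tested, 0.0149%, 0% and 0.00746% passed, and 6.504%, 3.88% and 4.83% had an unadjusted p under 0.05. For Bmp4 the Mb effect exceeded the Fb effect by 0.61 in TKO_Ex (standard error 0.31), 0.64 in DKO_Ex (standard error 0.36) and 0.72 in DKO_CD (standard error 0.40). For Nog it was below the Fb effect, at -0.49 (standard error 0.31), -0.79 (standard error 0.31) and -0.47 (standard error 0.24). The limma adjusted p values of both genes were 0.776 to 0.9996. The unadjusted p of Nog in DKO_Ex was 0.0205 by limma, and it did not pass once adjusted over 13349 genes.

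The regional difference itself can be read within each genotype, as a description over 3 to 6 libraries per tissue. Id2 was higher in the Mb than in the Fb without overlap in all 4 groups, with mean ratios of 2.14 in WT, 1.75 in TKO_Ex, 1.93 in DKO_Ex and 1.94 in DKO_CD. The Fb to Mb ratio of mean Bmp4 was 4.15 in WT, 2.28 in TKO_Ex, 2.37 in DKO_Ex and 2.14 in DKO_CD, and the ranges overlapped in DKO_CD alone. Bmp7 was lower in the Mb without overlap in the 3 mutant groups, where its Fb to Mb ratio was 2.24, 2.18 and 1.28, against 1.53 in WT. Members without overlap were 2 higher and 2 lower in TKO_Ex (4.67% and 4.27% of all genes), 5 higher and 2 lower in DKO_Ex (12.6% and 7.86%), and 3 higher and 2 lower in DKO_CD (7.34% and 8.21%).

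Among the 45 further pathway genes, 0 passed the adjusted threshold in any comparison of a mutant group with WT or in any interaction (limma). At an unadjusted p under 0.05 by limma, between 0 and 6 of them differed in the comparisons with WT. The highest count was in the DKO_CD Fb, with 6 of 29 tested, where 8.44% of all genes tested reached that level. There 4 of 8 tested antagonists other than Nog and 2 of 8 Smad and regulator genes were higher at that level.

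The genes whose levels ran most like those of a member over the 32 libraries were taken from those with a mean of at least 5 FPKM, by Pearson's r of log2(FPKM + 1). The libraries share their tissue and genotype, no r was computed within a tissue, and the values are given as a description. For Id2 they were Pou3f2 (0.95), Irx5 (0.94) and Irx2 (0.94), and for Msx1 they were Mbp (0.88), Fabp7 (0.88) and Fzd10 (0.87). Bmp4 ran most like Capn6 (0.84), Hes1 (0.83) and Wdr86 (0.82), and Bmp7 most like Nr2e1 (0.86), Wnt7b (0.86) and Emx2 (0.85). The closest gene was Armcx2 for Id1 (0.81), Zfand5 for Id3 (0.82), Mbp for Msx2 (0.77), Slc2a3 for Bmp2 (0.77), Ptpn13 for Nog (0.69) and Parva for Bmp5 (0.60).

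All 10 genes lie outside the chromosomes of the targeted cadherins. On GRCm38 the annotated positions of those with the clearest values are chr14:46383520-46390669 for Bmp4 (ENSMUSG00000021835), chr11:89300638-89302332 for Nog (ENSMUSG00000048616), chr5:37820485-37824583 for Msx1 (ENSMUSG00000048450) and chr12:25093799-25097140 for Id2 (ENSMUSG00000020644), each on the minus strand.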

How the data were processed

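Total RNA of Fb and Mb tissue was sequenced from directional libraries. The deposited FPKM are Cufflinks values that the authors computed after alignment with TopHat2 (GRCm38), scaled for gene length and mapped fragments; tool versions and annotation are not given in the sources used here. The authors' read counts and DESeq2 results were not used. FPKM of 65 repeated identifiers were summed, and 48218 of 48576 identifiers were found in GENCODE M21. Foxc2 and Tubb3 of the marker lists were not analysed here.

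Groups follow the column headings, which differ from the record in 12 DKO files. Depth was estimated from whole-fragment steps in 771 single-transcript genes of at least 4000 bp, where 75.7% to 84.0% of low values fell within 0.1 of a whole fragment. The estimate and the limma fits were also run on simulated data. For limma these gave every gene the same spread beyond counting noise, which real libraries need not have. There, an interaction of 1 on the log2 scale was called for 44% to 50% of the genes given it. Those genes were drawn from all that reached 1 FPKM, so the share does not tell how often such an effect of Bmp4 or Nog would be called. Genes whose mean reached 1 FPKM entered limma 3.58.1 in R 4.3.3 (lmFit, eBayes with trend) on log2(FPKM + 1), a scale that understates changes of low genes, with Benjamini-Hochberg adjustment over all genes tested and a threshold of 0.05. Each mutant group had its own fit with WT, and the interaction used both tissues. For single members, exact permutation tests, two-sided, were run (SciPy 1.17.1, Python 3.11.15), 70 in all. The paper's methods describe collecting forebrain and midbrain separately from dissected embryos. Nothing in the labels says which Fb and Mb libraries share an embryo, so the main fits took them as independent. The p values measure the spread between libraries.

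The members and all gene lists were chosen with earlier results of these data known. The rule for naming was the 10 members, the targeted cadherins, every listed gene past the threshold and the 3 genes most like each member. Of those 3, the first alone is given for 6 members. Pathway genes past the threshold are all named, whereas most marker genes past it are given only as counts and sums. En1 was named after its values were seen. Alternatives were other pseudocounts (0.1 and 5), no filter, at least 1 FPKM in every library, median-of-ratios scaling, quantile normalization, no trend, a joint fit of all groups, a block for the replicate number, grouping by record and leaving out each library.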

Additional observations from a re-analysis of the deposited data

Results flagged for a closer look

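Of 40 groups of 4 or 6 libraries examined for the members, 3 held a library far from the others by Dixon's criterion, where chance gives about 1 in 20. Bmp5 was 3.27 FPKM in TKO_Ex Fb replicate 3, with the next library at 1.65. Id3 was 272 FPKM in TKO_Ex Mb replicate 3, with the next at 224, and this is the library pair whose Cdh6 lay in the WT range. Id1 was 160 FPKM in WT Mb replicate 1, with the next at 117.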

How the results depend on the processing

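The count of members called was 5 to 7 in WT Mb against WT Fb with 1 library left out and 0 in every alternative of the mutant comparisons and interactions, where 1989 member fits gave a smallest adjusted p of 0.251 (limma). Differences that passed no threshold changed sign in a few settings. Bmp5 in WT Mb against WT Fb was -0.01 with quantile normalization and -0.11 to 0.16 with 1 library left out, Nog was -9e-05 to 0.19 with 1 library left out, and Bmp7 in the DKO_Ex Fb was -0.03 when DKO libraries were assigned by record; the cause was not tested, except that grouping by record exchanges the DKO groups. Other calls that moved in WT Mb against WT Fb were Msx2 with no filter (limma adjusted p = 0.0523) and Id1 with quantile normalization (0.0241). With the replicate number as a block, 4 members were called, and Bmp7 (limma adjusted p = 0.0797) and Msx2 (0.0811) were not. The numbers were treated as shared numbers only. Deviations of same-numbered Fb and Mb libraries of a group correlated by 0.008 to 0.14 over 16 pairs. Of these, 14 were best with their own number, which is what shared embryos would give, though no label states them. For mutant and WT libraries the correlations ranged from -0.086 to 0.049 over 20 pairs, 0 best with their own. The main fits of WT Mb against WT Fb and of the interactions ignored any such pairing, which the block for the replicate number takes in. Few fragments per library limit Bmp2, Bmp4, Bmp5 and Nog most, with about 1 to 38 in an Mb library.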
